A study of Mus musculus with 22 samples.

Results

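The 40 genes described here encode the machinery that copies DNA and divides cells, and they were measured in mouse liver. They were chosen by name: every probe whose gene name in the deposited unnormalized array table equalled one of the 40 symbols was taken. This gave 90 probes of 45281 in the table, and 40 gene names of 30774. In 5 roles they comprised 8 genes that license replication origins, 11 of the replication fork and of nucleotide supply, 9 that encode cyclins or a cyclin-dependent kinase, 10 of mitosis, and a pair made of the CDK inhibitor gene Cdkn1b and the phosphatase gene Cdkn3.

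Liver RNA came from 22 male C57BL/6J mice, an inbred strain, aged 29 weeks, with 1 array per mouse. Their mothers were assigned at 5 weeks of age to either the low-fat control diet (L) or the western diet (W), were mated 6 weeks later, and kept that diet through pregnancy and suckling. After weaning the sons received W or L for 24 weeks. Group names give the diet of the mother and then that of the son: LL (low-fat mother and low-fat son, n = 6), LW (low-fat mother, western son, n = 5), WL (western mother, low-fat son, n = 5) and WW (western for both, n = 6). The submitters had left out 1 experimental and 1 biological outlier. No litter is given, so p-values treat each mouse as independent.

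Most hepatocytes of an adult liver rest outside the cell cycle and can enter it again after injury or loss of tissue. A dividing cell first loads the ring-shaped MCM2-7 helicase onto its replication origins with the help of the loaders CDC6 and CDT1. It then copies its DNA with polymerases, a sliding clamp and a supply of nucleotides, and finally passes through mitosis under the control of mitotic cyclins, kinases and the spindle checkpoint. Genes of the first steps are known targets of E2F transcription factors, and genes of the last steps are known for the CHR element (cell cycle genes homology region) and CCAAT boxes in their promoters.

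The 22 arrays detected between 13285 and 15105 probes each, at a deposited detection p under 0.05, and lay on 4 slides that the groups filled unevenly. The slides differed: with the groups fitted, the median F for slide was 2.03 over all genes and 1.84 over the tested members. Without a slide difference 0.82 is expected. The main fit holds no slide term, and fits with slide as a block are given as alternatives. Of 12 hepatocyte marker genes, 11 were tested and their summed normalised intensity lay between 150775 and 190434 in every mouse. Slide 1 held 1 low-fat-fed mouse (LL replicate 1), slide 3 held 1 western-fed mouse, and WL replicate 5 was the only WL mouse on slide 4. LL replicate 1 had the lowest mean signal of all arrays, 151 intensity units against up to 276. Levels below are log2 intensities after normalisation with an offset of 16, which compresses differences of genes near background. Bulk RNA cannot tell fewer cells of a type from less RNA per cell.

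Members ranged from detected in every mouse to detected in none. At least 1 probe was detected on all 22 arrays for 11 of the 40 genes: Mcm4, Rrm1, Tyms, Tk1, Lig1, Rfc3, Rfc5, Ccnd1, Ccnd3, Cdk4 and Birc5. In contrast 9 genes were detected in no mouse of any group. These were Pcna, the sliding clamp, Prim1, the primase subunit, Uhrf1, which helps to maintain DNA methylation, the S phase and mitotic cyclins Ccna2, Ccnb1, Ccnb2 and Ccne2, and the mitotic kinases Aurkb and Bub1. An undetected probe shows only that its signal was not well above background.

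The filter for testing, detection on at least 5 of 22 arrays by 1 probe, was met by 43 of the 90 probes and by 27 of the 40 genes. All 8 licensing genes passed it, as did 7 of 11 fork and nucleotide genes, 4 of 9 of the cyclin and kinase set (Ccnd1, Ccnd2, Ccnd3 and Cdk4), 7 of 10 mitotic genes and Cdkn3. Besides the 9 never detected, Rfc4 (a clamp loader subunit, 4 arrays), Ccne1 (the cyclin of S phase entry, 3 arrays), Stmn1 (a microtubule regulator, 1 array) and Cdkn1b (4 arrays) were not tested. Cdkn1b, which encodes the CDK inhibitor p27, was detected in 4 of 6 LL mice and in 0 of 16 others, at group means of 4.76 in LL and 4.66 to 4.67 in the other groups. Its other 2 probes were detected on no array.

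A WW mouse had between 21 and 26 of the 40 members detected (median 25). LL mice had 19 to 26 (median 23), LW mice 16 to 24 (median 20) and WL mice 16 to 24 (median 18). The ranges of all groups overlapped, and all detected probes on these arrays ran from 14155 to 15105 in WW and from 13891 to 14840 in WL.

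**Figure D1:**
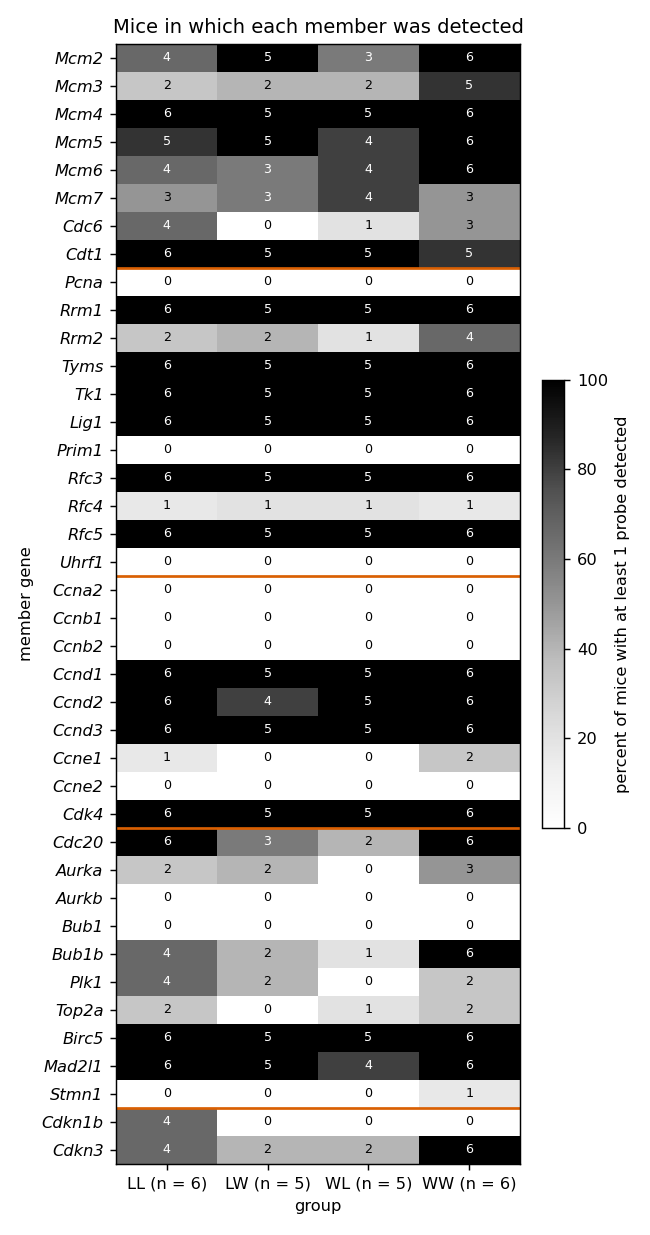
Number of mice in each group (columns) in which at least 1 probe of a member gene (rows, ordered by role and parted by orange lines) was detected, with grey shade for the percentage of the group's mice. The licensing genes were all detected in some mice, the cyclins Ccna2, Ccnb1, Ccnb2 and Ccne2 in none, and Cdc20, Bub1b and Cdkn3 in all 6 WW mice.

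The promoters are shown because the roles differ in the short motifs they hold, and the values below are ordered by role. RefSeq promoter windows (GRCm38.p6, from 250 bases before to 50 bases after a start) matched 33 of the 40 members, with 38 windows. Mcm4, Ccnd1, Ccnd2, Ccna2, Ccne2, Aurkb and Stmn1 had none. Searched on both strands were the E2F-type letters TTTGGCGC, TTTCCCGC, TTTGCCGC and TTTCGCGC, the CHR letters TTTGAA and the CCAAT box letters CCAAT. The last 180 bases before the start of 5 members follow, 5′ to 3′ on the gene's strand, with capitals for every match.
Mcm5: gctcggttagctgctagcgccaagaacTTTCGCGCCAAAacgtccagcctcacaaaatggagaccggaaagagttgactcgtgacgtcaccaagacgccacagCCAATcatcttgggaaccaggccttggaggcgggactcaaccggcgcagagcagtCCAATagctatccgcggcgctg
Mcm6: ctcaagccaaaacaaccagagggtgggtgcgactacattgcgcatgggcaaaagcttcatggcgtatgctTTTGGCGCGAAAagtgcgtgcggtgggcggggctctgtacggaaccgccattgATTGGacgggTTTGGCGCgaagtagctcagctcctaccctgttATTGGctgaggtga
Mcm2: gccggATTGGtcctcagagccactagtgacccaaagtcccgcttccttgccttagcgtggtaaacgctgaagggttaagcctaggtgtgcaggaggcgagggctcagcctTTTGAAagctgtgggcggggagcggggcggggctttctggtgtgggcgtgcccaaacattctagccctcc
Cdc20: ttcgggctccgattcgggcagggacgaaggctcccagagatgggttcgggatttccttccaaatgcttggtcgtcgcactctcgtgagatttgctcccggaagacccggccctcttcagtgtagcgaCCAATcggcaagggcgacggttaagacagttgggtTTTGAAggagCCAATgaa
Cdkn3: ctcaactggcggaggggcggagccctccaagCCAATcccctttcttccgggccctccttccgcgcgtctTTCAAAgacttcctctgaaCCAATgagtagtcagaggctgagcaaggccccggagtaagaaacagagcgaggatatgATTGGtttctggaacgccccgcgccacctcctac

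These stretches lie at chr8:75109329-75109508 (plus strand) for Mcm5, chr1:128359706-128359885 (minus) for Mcm6, chr6:88898781-88898960 (minus) for Mcm2, chr4:118437344-118437523 (minus) for Cdc20 and chr14:46760361-46760540 (plus) for Cdkn3. In Mcm5 and Mcm6 an E2F-type match on each strand overlaps the other by 4 bases, beginning 153 bases before the start of Mcm5 and 110 bases before that of Mcm6. Mcm6 holds a further E2F-type match 47 bases before its start. The window of Mcm2 holds a CHR match and a CCAAT box, and none of the E2F-type letters. Cdc20 holds a CHR match 18 bases before its start between a pair of CCAAT boxes.

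E2F-type letters stood in 6 of 8 licensing windows (75%) and in 0 of 8 mitotic windows, against 2.26% of all 32851 windows. CHR letters stood in 1 of 8 licensing windows (12.5%) and in 5 of 8 mitotic windows (62.5%), against 17.9% of all windows. A CCAAT box stood in 75% of the windows of either role, against 37.4% of all. These are matches of letters only, and no binding was measured.

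Western-fed sons had higher liver levels of Mcm2, Mcm4 and Mcm5, subunits of the helicase ring, than low-fat-fed sons when the diet difference was averaged over both maternal diets. These 3 of 27 tested members rose (limma, Benjamini-Hochberg adjusted p under 0.05 over 9881 genes), where 1.53% of all genes rose. No tested member fell in this average, where 1.18% of all genes fell, and 6 of 27 members were under an unadjusted p of 0.05, as were 20% of all genes. Over the 27 members the median difference was 0.15, and 20 were higher by sign, against a median of 0.0049 and 51.2% of all genes.

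Mcm2 encodes a subunit at the gate through which the ring opens. In LL its level ran from 4.48 to 5.32 (median 4.98), and in WW from 5.28 to 6.40 (median 5.62). Levels in LW were 5.66, 5.43, 6.14, 5.36 and 5.41, and in WL 5.01, 5.62, 4.78, 5.11 and 4.58. Every LW mouse lay above every LL mouse, while WL replicate 2 reached into the WW range. Mcm2 was detected in 4 of 6 LL and 3 of 5 WL mice, and in every LW and WW mouse. Averaged over maternal diets, Mcm2 was higher in western-fed sons by 0.70 ± 0.15 on the log2 scale (SE, limma, adjusted p = 0.013), a 1.63-fold difference, and 11 of 11 western-fed mice exceeded the low-fat-fed mean.

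Mcm4, part of the catalytic core of the helicase, ran from 6.10 to 7.14 in LL (median 6.64) and from 6.91 to 7.83 in WW (median 7.31). In LW the values were 6.90, 7.51, 6.98, 7.01 and 7.12, and in WL 6.33, 6.86, 6.83, 6.68 and 6.87. All 6 WW mice lay above all 5 WL mice, and LL replicate 5 alone kept LW from lying wholly above LL. The averaged difference was 0.53 ± 0.12 (SE, limma, adjusted p = 0.0203), or 1.44-fold, and again 11 of 11 western-fed mice exceeded the low-fat-fed mean. Mcm4 rests on 1 of its 3 probes, since the other 2 were detected on no array, with group means between 4.32 and 4.45.

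Mcm5, which closes the ring beside Mcm2, ran from 4.85 to 5.78 in LL (median 5.30) and from 5.88 to 6.43 in WW (median 6.16). The LW mice had 5.76, 5.93, 6.34, 5.81 and 6.02, and the WL mice 5.78, 5.62, 5.30, 5.73 and 4.54. WW lay wholly above WL, LW overlapped LL only through LW replicate 1 and LL replicate 3, and WL replicate 5 stood lowest of all mice. Mcm5 was detected in every LW and WW mouse, in 5 of 6 LL mice (not LL replicate 1) and in 4 of 5 WL mice (not WL replicate 5). The averaged difference was 0.69 ± 0.14 (SE, limma, adjusted p = 0.00781), or 1.62-fold, with 11 of 11 western-fed mice above the low-fat-fed mean.

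**Figure D2:**
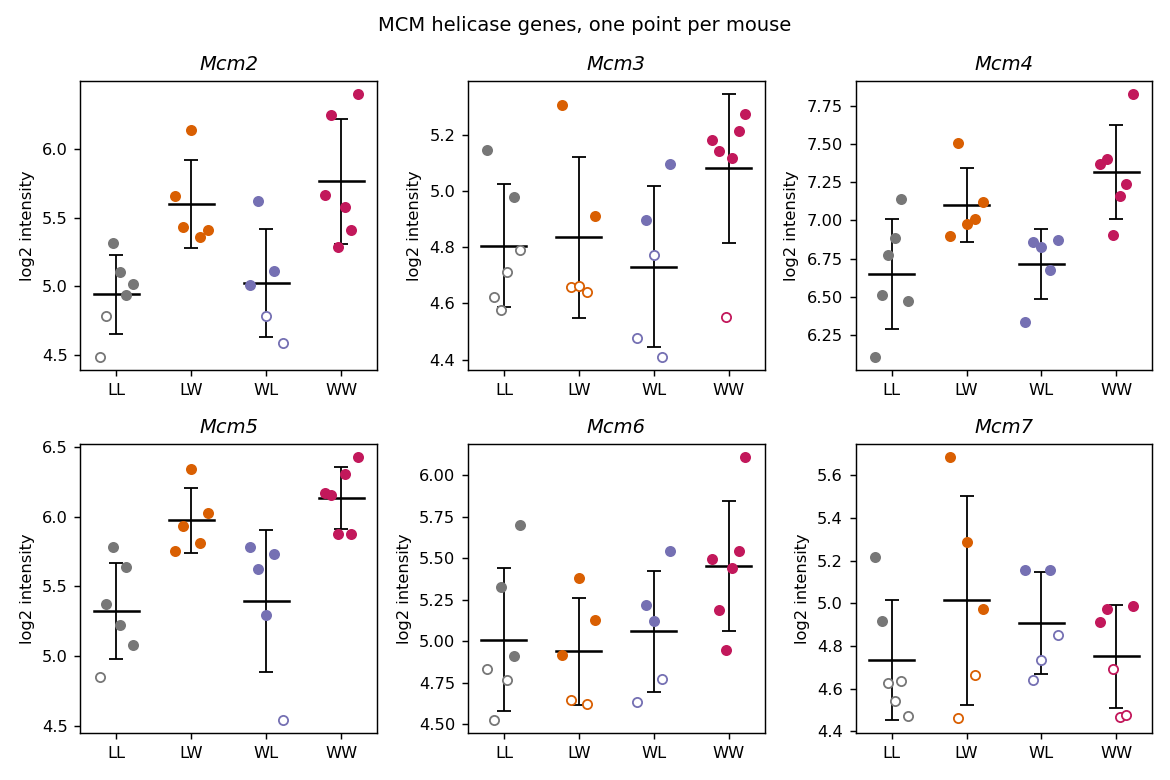
Log2 normalised intensity of the 6 MCM helicase genes in each mouse, by group, with filled points where the probe was detected and open points where it was not; bars are the group mean and SD (n = 6, 5, 5 and 6). Mcm2, Mcm4 and Mcm5 are higher in LW and WW than in LL and WL, and Mcm3, Mcm6 and Mcm7 lie near the detection limit in many mice.

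The direction of these 3 genes was the same within each slide, though its size was not. On slides 1 to 4 in turn, western-fed minus low-fat-fed means were 1.27, 0.27, 0.41 and 1.00 for Mcm2, 1.19, 0.42, 0.42 and 0.69 for Mcm4, and 1.15, 0.38, 0.48 and 1.03 for Mcm5. The larger values belong to slides 1 and 4, which hold LL replicate 1 and WL replicate 5. With slide as a fixed block the averaged differences were 0.70 for Mcm2 (limma, adjusted p = 0.0394), 0.64 for Mcm4 (adjusted p = 0.00896) and 0.73 for Mcm5 (adjusted p = 0.011). Leaving out each mouse in turn kept all 3 past the threshold, with adjusted p from 0.00371 to 0.0394 over the 22 fits and the 3 genes. On the deposited normalised values Mcm4 and Mcm5 passed and Mcm2 did not (adjusted p = 0.0789).

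Taken separately for each maternal diet, the same 3 genes were higher in western-fed sons but none passed in the main fit. In LW against LL, 0 of 27 members were called by limma (6 at an unadjusted p under 0.05), where 0.243% of all genes were called and 15.4% were under that p. Mcm2 was higher by 0.66 ± 0.21 (SE, limma, adjusted p = 0.14), Mcm5 by 0.65 ± 0.19 (0.123) and Mcm4 by 0.45 ± 0.17 (0.212). In WW against WL, 0 of 27 were called (11 at an unadjusted p under 0.05), where 0.476% of all genes were called and 13.8% were under that p. There Mcm2 was higher by 0.74 ± 0.21 (SE, limma, adjusted p = 0.111), Mcm5 by 0.74 ± 0.19 (0.0895) and Mcm4 by 0.60 ± 0.17 (0.117). With slide as a fixed block Mcm5 passed in WW against WL (0.90, limma, adjusted p = 0.0204), as it did with slide as a random block (0.82, adjusted p = 0.0248). The difference of these differences was 0.08 ± 0.29 for Mcm2, 0.15 ± 0.24 for Mcm4 and 0.09 ± 0.27 for Mcm5, and did not pass.

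The other helicase subunits did not pass. Mcm3 was detected in 2 of 6 LL, 2 of 5 LW, 2 of 5 WL and 5 of 6 WW mice, with group means of 4.80, 4.83, 4.73 and 5.08. Mcm6 had means of 5.01, 4.94, 5.06 and 5.45 in that order, and its averaged difference of 0.16 ± 0.15 did not pass (limma, adjusted p = 0.588). A second Mcm6 probe was detected in 1 LL, 3 LW, 3 WL and 6 WW mice, and its averaged difference, 0.45 ± 0.13, missed the threshold over all 16268 probes (limma, adjusted p = 0.0524). Mcm7 differed by 0.06 ± 0.13 in the average, with a 95% interval from −0.21 to 0.33.

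The loaders Cdc6 and Cdt1 were not higher in western-fed sons. Cdt1 had group means of 5.30 in LL, 5.33 in LW, 5.40 in WL and 5.17 in WW, and its averaged difference was −0.10 ± 0.11. The probe used for Cdc6 was detected in 0 of 5 LW mice, so LW gives only a bound for it. Its averaged difference was −0.13 ± 0.09 (limma, adjusted p = 0.42).

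Members of the fork and of nucleotide supply had small differences in the average over maternal diets. None of the 7 tested was called by limma in the average (0 at an unadjusted p under 0.05). Their averaged differences ran from −0.19 in Tk1, the thymidine salvage kinase, to 0.21 in Lig1, the ligase that joins Okazaki fragments. In LW against LL 2 of the 7, Lig1 and Rfc5, were under an unadjusted p of 0.05, where 15.4% of all genes were, and 0 were called. In WW against WL 1 was, where 13.8% of all genes were, and 0 were called. Lig1 had group means of 5.13 in LL and 5.50 in LW. Rrm1, the large subunit of ribonucleotide reductase, had group means of 6.40 in LL, 6.17 in LW, 6.04 in WL and 6.26 in WW. Rrm2, its small subunit, was detected in 2 LL, 2 LW, 1 WL and 4 WW mice, and was higher in WW than in WL by 0.37 ± 0.15 (SE, limma, adjusted p = 0.285). Tyms, which makes thymidylate, ranged from 6.41 to 7.30 over all mice, and its 5 probes did not agree in brightness: only 2 passed the filter.

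Rfc5, a subunit of the clamp loader, was higher in LW than in LL by 0.38 ± 0.15 (SE, limma, adjusted p = 0.212). Levels in LW were 7.05, 6.74, 6.80, 6.65 and 6.53, while 5 LL mice lay between 6.20 and 6.38 and LL replicate 1 stood apart at 6.89. Without LL replicate 1 the difference was 0.49 (limma, adjusted p = 0.0665), and without both LL replicate 1 and WL replicate 5 it passed (adjusted p = 0.0444), a choice made after seeing the data. With slide as a block it was 0.22 (adjusted p = 0.586). Rfc3, another subunit, had group means of 5.31 to 5.44.

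Tk1 gave unlike answers from its 4 probes. The probe with the highest mean, used here, had group means of 8.43, 8.40, 8.43 and 8.08 in LL, LW, WL and WW, and was detected in every mouse. The other 3 had group means from 4.51 to 5.80, and their LW minus LL differences were positive where that of the first was −0.04. No probe of Tk1 passed in any comparison.

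Among the cyclins, only those of the D type met the filter. Ccnd1 encodes cyclin D1, which couples growth signals to CDK4 and CDK6 and is known to rise when hepatocytes enter the cycle. Its level ran from 7.69 to 9.91 in LL (median 8.82) and from 9.24 to 10.77 in WW (median 9.63). In LW the values were 9.18, 9.57, 9.11, 9.07 and 9.77, and in WL 8.57, 9.78, 9.03, 8.78 and 8.20. All 11 western-fed mice exceeded the low-fat-fed mean, but LL replicates 3 and 4 and WL replicate 2 stood among them. The averaged difference of 0.69 ± 0.22 did not pass (SE, limma, adjusted p = 0.0842), and its SE was wider than that of Mcm5.

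A second bright Ccnd1 probe gave 0.52 ± 0.25 in the average and a dimmer one 0.24 ± 0.18, so all 3 were positive and none passed. Ccnd2 and Ccnd3, the other D-type cyclins, differed by −0.11 ± 0.15 and −0.16 ± 0.10. Cdk4, their kinase partner, differed by 0.04 ± 0.08, with a 95% interval from −0.13 to 0.20.

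**Figure D3:**
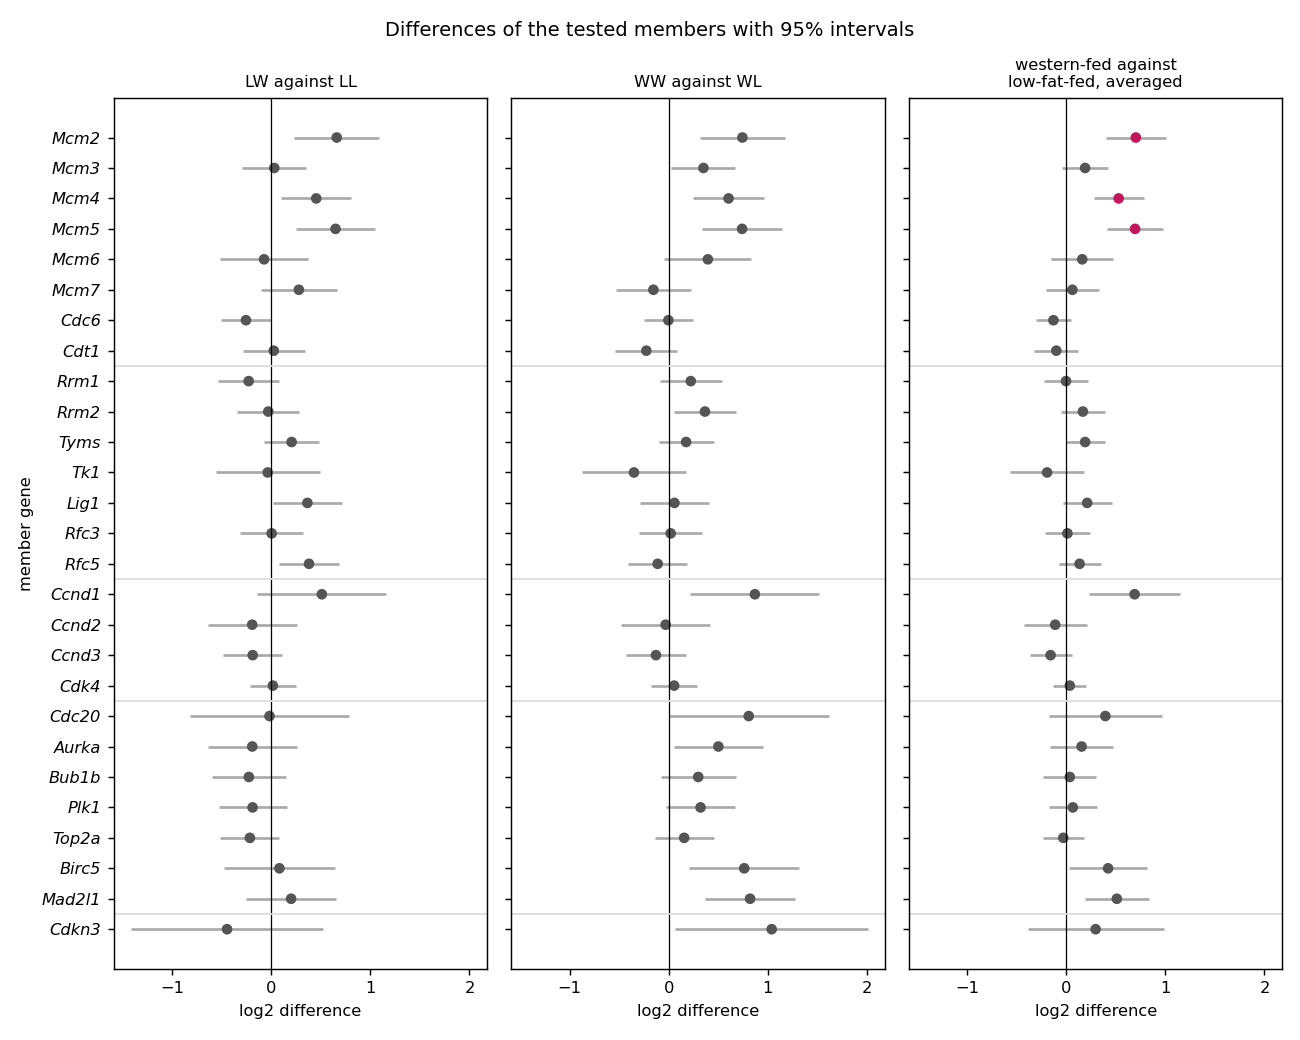
Log2 difference with its 95% interval for the 27 tested members, ordered by role from licensing (top) to Cdkn3 (bottom), in LW against LL, WW against WL, and western-fed against low-fat-fed averaged over both; magenta points passed at an adjusted p under 0.05 and grey points did not. Mcm2, Mcm4 and Mcm5 are the points that passed, and the mitotic genes lie around 0 in LW against LL and above 0 in WW against WL. Cdc6, Aurka, Plk1 and Top2a are drawn at fitted values, though each was undetected throughout a group.

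Mitotic genes were higher by sign in WW than in WL, and mostly lower in LW than in LL, but none passed. In WW against WL all 7 tested were higher by sign with a median difference of 0.50, or 0.30 with Aurka and Plk1 at their bounds, whereas in LW against LL 2 of 7 were higher and the median was −0.19, or −0.02 with Top2a at its bound. Limma called 0 of the 7 in either comparison (4 and 0 at an unadjusted p under 0.05). Aurka was detected on 7 arrays, 3 of them WW, and Top2a on 5, 2 of them WW. Both met the filter only with WW arrays counted, so their sign in WW against WL is tied to the filter. Of all 27 members 20 were higher in WW than in WL and 14 in LW than in LL, against 49.1% and 52% of all genes, whose medians were −0.0050 and 0.010.

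Cdc20, which activates the anaphase-promoting complex, ran from 4.45 to 7.35 in LL (median 4.94) and from 5.07 to 6.59 in WW (median 5.83). The LW mice had 4.87, 5.15, 5.95, 4.53 and 5.47, and the WL mice 4.84, 5.36, 5.31, 4.72 and 4.60. A single LL mouse, replicate 3, stood above all other mice of the study, and some WW mice lay within the WL range while others lay above it. WW exceeded WL by 0.81 ± 0.39 (SE, limma, adjusted p = 0.359). The other 2 Cdc20 probes that passed the filter were detected in 0 of 5 WL mice, and in 5 and 6 of 6 WW mice. The probe detected in all 6 WW mice met the filter only with WW arrays counted, so its detection contrast is tied to the filter. At least 1 Cdc20 probe was detected in 6 of 6 LL, 3 of 5 LW, 2 of 5 WL and 6 of 6 WW mice.

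Birc5 encodes survivin, part of the chromosomal passenger complex. It ran from 5.18 to 7.16 in LL (median 5.39) and from 5.81 to 6.73 in WW (median 6.17). Levels in LW were 6.08, 5.43, 6.33, 5.52 and 5.62, and in WL 5.17, 5.77, 5.16, 5.74 and 5.30. WW lay wholly above WL, with a difference of 0.76 ± 0.27 that did not pass (SE, limma, adjusted p = 0.215), and the highest mouse was again LL replicate 3.

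Mad2l1, the spindle checkpoint protein that holds Cdc20 back, ran from 5.08 to 6.06 in LL (median 5.43) and from 5.90 to 6.44 in WW (median 6.13). In LW the values were 5.04, 5.56, 6.49, 5.62 and 5.72, and in WL 5.79, 5.67, 5.08, 5.41 and 4.59. All WW mice exceeded all WL mice, by 0.82 ± 0.22 on average (SE, limma, adjusted p = 0.102). With slide as a fixed block Mad2l1 passed in WW against WL (0.94, limma, adjusted p = 0.0214). The WW minus WL difference was 0.52 on slide 2 and 1.46 on slide 4, where WL replicate 5 was the only WL mouse. Mad2l1 was detected in every mouse but WL replicate 5.

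Cdkn3, a phosphatase that acts on cyclin-dependent kinases and peaks late in the cycle, had the widest range of the tested members. It ran from 4.37 to 8.12 in LL (median 5.00) and from 5.03 to 6.99 in WW (median 5.62). The LW mice had 4.41, 4.58, 5.66, 4.28 and 5.43, and the WL mice 4.48, 4.97, 5.02, 4.63 and 4.57. WW lay just above WL without overlap, by 1.04 ± 0.47 (SE, limma, adjusted p = 0.329). Cdkn3 was detected in 4 of 6 LL, 2 of 5 LW, 2 of 5 WL and 6 of 6 WW mice. The next highest LL mouse after LL replicate 3 had 5.05.

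Members whose groups did not overlap were Mcm4, Mcm5, Birc5, Mad2l1 and Cdkn3 in WW above WL, 5 of 27, where 1.04% of all genes did not overlap in that direction. In LW above LL there was 1 of 27, Mcm2, where the share of all genes was 1.27%. The remaining mitotic genes were the kinases Aurka and Plk1, the checkpoint kinase Bub1b and the topoisomerase Top2a. Aurka and Plk1 were not well above background in any WL mouse, and WW was at least 1.13-fold and 1.02-fold higher (adjusted p = 0.303 and 0.4, limma). Bub1b had means of 5.14, 4.91, 4.85 and 5.15 in LL, LW, WL and WW.

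**Figure D4:**
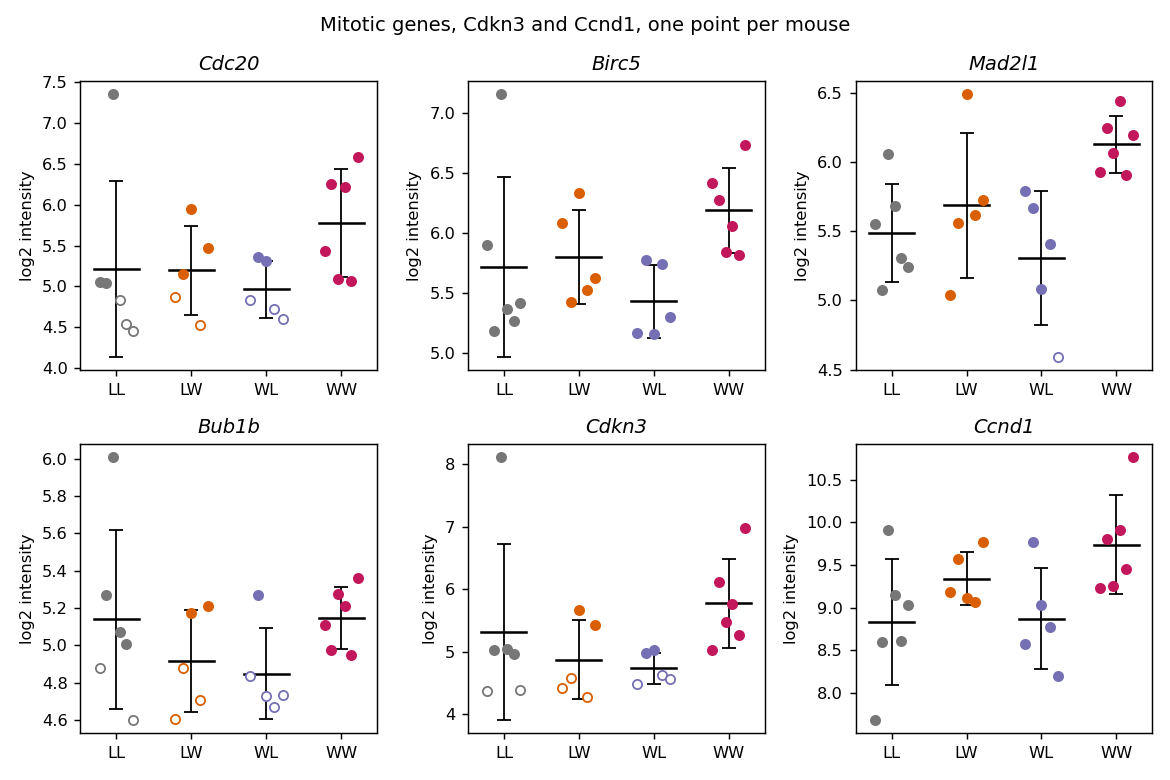
Log2 normalised intensity of 4 mitotic genes, Cdkn3 and Ccnd1 in each mouse, by group, with filled points where the probe was detected and open points where it was not; bars are the group mean and SD (n = 6, 5, 5 and 6). LL replicate 3 is the highest point for Cdc20 (7.35), Birc5 (7.16), Bub1b (6.01) and Cdkn3 (8.12), and WW lies above WL for Birc5, Mad2l1 and Cdkn3.

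LL replicate 3 carried much of the LL mean for these genes. Without it the median of the mitotic genes in LW against LL was 0.16 with 4 of 6 higher, where Top2a no longer met the filter. In WL against LL all 7 were lower with it, with a median of −0.29, or −0.19 with Aurka and Plk1 at their bounds, and 4 of 6 were lower without it. Medians without a mouse use the fitted values. The WW minus WL differences do not rest on LL mice. Leaving out WW replicate 6, the highest WW mouse, gave 6 of 6 higher with a median of 0.51, where Top2a again did not meet the filter. Over the same 6 genes the median was 0.63 with WW replicate 6 kept.

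Macrophage and pan-leukocyte markers were higher by sign in the same comparison as the mitotic genes. Of 17 macrophage genes 13 were tested, and 2 of the 13 were higher in LW than in LL (median −0.18) while 13 of 13 were higher in WW than in WL (median 0.31). None passed. The summed macrophage intensity ran from 6563 to 12582 in LL, 6287 to 7862 in LW, 5731 to 8404 in WL and 7163 to 15337 in WW. LL replicate 3 had the highest sum in LL and WW replicate 6 the highest in WW, the mice with the highest Cdkn3 levels. Pan-leukocyte markers were higher in WW than in WL for 7 of 7 tested (median 0.51), with summed intensities from 2260 to 3701 in WL and 3072 to 6587 in WW. Unlike the mitotic genes, 4 of these 7 were higher in LW than in LL (median 0.03), and 7 of 7 in the average (0.27). Ptprc and Cd53 of that list, and Cd5l and Itgax of the macrophage list, were detected in no mouse. By sign 4 of 4 tested neutrophil genes, 6 of 7 of T and NK lymphocytes and 2 of 3 of B lymphocytes were also higher in WW than in WL, with 0 called. The part of these cells in the mitotic differences was not tested.

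The summed erythroid intensity ran from 26991 to 35717 in LL, 32853 to 50497 in LW, 26378 to 42294 in WL and 34872 to 70695 in WW, from 5 tested genes of 10, with Hbb-b2 and Epb42 never detected. It was higher in western-fed than in low-fat-fed groups by their medians, alongside Mcm2, Mcm4 and Mcm5, and its part in their differences was not tested. For the T and NK lymphocyte list 7 of 18 genes were tested and summed to 748 to 1098 in LL, 860 to 995 in LW, 632 to 1286 in WL and 800 to 1225 in WW. Of 10 tested stellate cell and fibroblast genes 8 were higher by sign in WW than in WL (median 0.21), and WW replicate 6 again had the highest sum.

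The comparisons of maternal diet called no member. In WL against LL 0 of 27 were called by limma (2 at an unadjusted p under 0.05, Rrm1 and Plk1), where 0% of all genes were called and 4.74% were under that p. Of the members 12 of 27 were higher by sign, against 51.9% of all genes. Their median was −0.07, or −0.04 with Aurka and Plk1 at their bounds, and for all genes it was 0.0071. Rrm1 differed by −0.36 ± 0.15 (SE, limma, adjusted p = 0.977). Plk1 was detected in 4 of 6 LL mice and 0 of 5 WL mice, and by its bound was 1.14-fold higher in LL. Its fitted difference did not pass (limma, adjusted p = 0.962). In WW against LW 0 of 27 were called (1 at an unadjusted p under 0.05, Mcm6), where 0% of all genes were called and 10% were under that p. The member median was 0.16 and 20 of 27 were higher by sign, against 48.3% of all genes. Mcm6 was higher in WW by 0.52 ± 0.21 (SE, limma, adjusted p = 0.444).

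For the interaction, the change of the son's diet difference with the mother's diet, 0 of 27 members were called by limma (5 at an unadjusted p under 0.05), where 0% of all genes were called and 8% were under that p. The 5 were Rrm1 (0.45 ± 0.21), Rfc5 (−0.49 ± 0.20), Cdkn3 (1.48 ± 0.67), Aurka and Plk1, with adjusted p from 0.58 to 0.61. For Aurka and Plk1 no size is given, since neither was detected in a WL mouse. By sign 21 of 27 members had an interaction above 0, against 48.7% of all genes. All 7 mitotic genes did, of which Aurka, Plk1 and Top2a each had a group in which they were not detected, and without LL replicate 3 all 6 still tested did. Aurka and Top2a met the filter only with WW arrays counted. The 6 Mcm genes had a median interaction of 0.12.

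The role means of each mouse show the same layout. Averaged over the 6 Mcm genes as a log2 difference from the LL mean, LL mice ran from −0.14 to 0.16, WL from −0.01 to 0.23, LW from 0.11 to 0.55 and WW from 0.13 to 0.93. Averaged over the 7 mitotic genes, LL ran from −0.35 to 1.03, WL from −0.49 to −0.04, LW from −0.31 to 0.34 and WW from −0.06 to 0.62. The mitotic mean uses fitted values of Aurka and Plk1, undetected in WL, and of Top2a, undetected in LW. Aurka and Top2a met the filter only with WW arrays counted, so the place of WW in this mean is partly tied to the filter. LL replicate 3 was high for the mitotic genes only (1.03 against 0.16 for the Mcm genes), and WW replicate 6 was high for both (0.62 and 0.93).

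**Figure D5:**
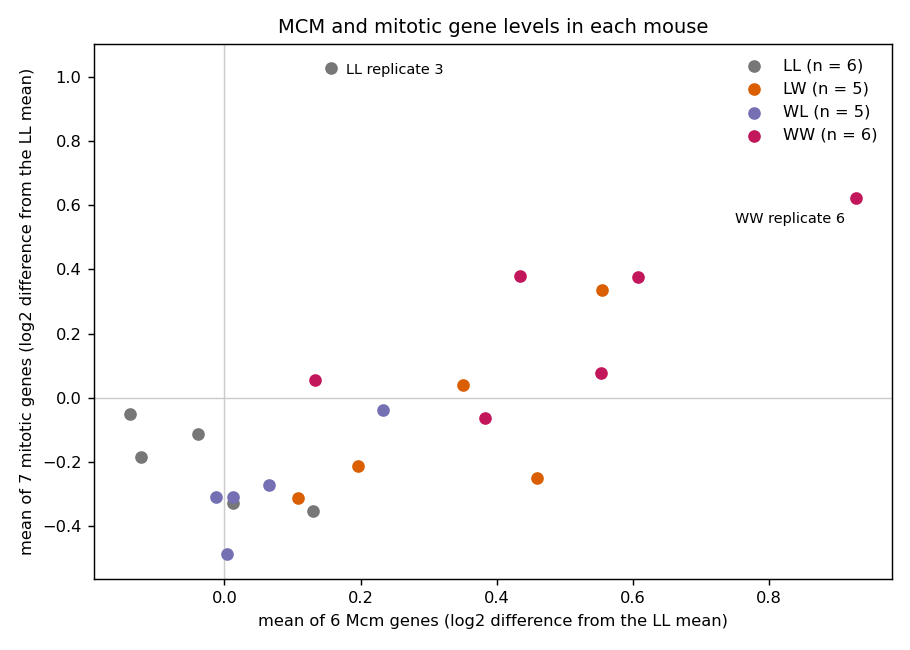
Each point is a mouse, placed by its mean over the 6 Mcm genes (x axis) and over the 7 tested mitotic genes (y axis), both as log2 differences from the LL mean and coloured by group. Western-fed mice (LW and WW) spread to the right, to 0.93 in WW replicate 6, and LL replicate 3 stands apart at the top at 1.03. The y axis includes fitted values of Aurka, Plk1 and Top2a, each undetected throughout a group, and Aurka and Top2a met the filter only with WW arrays counted.

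Of 130 other genes of the pathway, 68 were tested. In the average over maternal diets 2 of the 68 rose and 0 fell, where 1.53% of all genes rose and 1.18% fell. The 2 were E2f1, the transcription factor that drives S phase genes, and Rpa2, a subunit of the protein that coats single-stranded DNA. E2f1 ran from 5.18 to 6.35 in LL (median 5.94), 6.19 to 6.62 in LW, 5.36 to 6.10 in WL and 6.06 to 6.61 in WW (median 6.29), and was higher in western-fed sons by 0.50 ± 0.12 (SE, limma, adjusted p = 0.0316). Rpa2 was higher by 0.44 ± 0.12 (SE, limma, adjusted p = 0.0379). For each gene 11 of 11 western-fed mice exceeded the low-fat-fed mean, and the diet groups overlapped.

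By list, 15 of 17 other fork and nucleotide genes were higher by sign in that average (median 0.15), as were 7 of 10 other genes of origin licensing and firing (0.06), 15 of 25 cyclins, inhibitors and regulators (0.04) and 8 of 16 other mitotic genes (0.03), against 51.2% of all genes. Outside the average none of the 68 passed. In LW against LL, Mcm10 was higher by 0.55 ± 0.15 (SE, limma, adjusted p = 0.0923) and Pold2 by 0.59 ± 0.16 (0.104). The Mcm10 probe was bright, with group means of 10.97 in LL and 11.51 in LW, where those of Mcm2 were 4.94 and 5.60. What the Mcm10 probe measures was not checked. For both Mcm10 and Pold2 LW lay wholly above LL, where 1.27% of all genes did so. Both were named for their small p-values in this same comparison, so the lack of overlap adds no separate support. Cdk1, the mitotic kinase, was higher in WW than in WL by 0.72 ± 0.22 (SE, limma, adjusted p = 0.147) and Prc1, which bundles the spindle midzone, by 1.04 ± 0.36 (0.206). Cdk1 was detected in 1 of 5 WL and 5 of 6 WW mice, and Prc1 in 2 of 5 and 6 of 6. In that comparison 9 of the 16 other mitotic genes were higher by sign and 7 lower, with a median of 0.04, and Prc1 had the highest difference of the 16. The p21 gene Cdkn1a, a CDK inhibitor, was lower in WL than in LL (−1.41 ± 0.42, adjusted p = 0.843) and lower in LW than in LL (−0.98 ± 0.42), and its interaction of 1.98 ± 0.59 did not pass (limma, adjusted p = 0.504). Its LL mice lay between 7.72 and 9.62 and its WL mice between 6.08 and 8.68, so the groups overlapped.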

How the data were processed

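The authors deposited, for each of 45281 probes and 22 arrays, an intensity with background already subtracted and a detection p-value, per the file headers; the method of both is not given in the sources used here. A deposited matrix of normalised intensity values on a linear scale served as an alternative. RNA was extracted with TriReagent and biotin-labelled for Illumina BeadChips, per the labels.

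Intensities were background-corrected and quantile-normalised with neqc of limma 3.58.1 (R 4.3.3), with an offset of 16, and put on a log2 scale. Probes detected at p under 0.05 on at least 5 arrays were kept (16268). Names were matched to RefSeq (GRCm38.p6), and the named probe with the highest mean stood for each of 9881 genes. Group means were fitted to 22 arrays with lmFit and eBayes, with Benjamini-Hochberg adjustment over all genes. A probe undetected throughout a group gave only a bound: the brighter group's mean over the dimmer group's detection limit. The brighter group's mean includes mice in which the probe was undetected. The number of arrays limits precision. The fit was tested on simulated data.

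The members, pathway genes and marker lists were chosen with earlier results of these data known. All members are named, with pathway genes that were called or, in each simple comparison, had the 3 smallest p-values. The text names some of the latter, chosen once their values were known. Slide, replicate number, detection filter, background correction, probe rule and single mice were varied. Same-numbered mice correlated over 0.1 in every pair only in WL against LL (0.11 to 0.31), where 0 members were called with and without the replicate block. Probe sequences were not used here, so probe identity was not checked.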

Additional observations from a re-analysis of the deposited data

Results flagged for a closer look

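In 7 of 108 groups of 5 or 6 mice (27 genes in 4 groups), 1 mouse lay far from the others by Dixon's criterion, where chance alone gives about 1 in 20 groups, or 5.4. LL replicate 3 was the highest LL mouse in 4 of them: Cdc20 at 7.35 (next 5.05), Aurka at 5.94 (next 5.03), Birc5 at 7.16 (next 5.90) and Cdkn3 at 8.12 (next 5.05), all detected. LL replicate 1 was highest in LL for Rfc5 at 6.89 (next 6.38). WL replicate 2 was highest in WL for Bub1b at 5.27 (next 4.84). WW replicate 3 was lowest in WW for Mcm3 at 4.55 (next 5.12), where its probe was not detected. No difference between maternal diets passed the interaction test.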

How the results depend on the processing

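The averaged differences of Mcm2, Mcm4 and Mcm5 kept their sign under all alternatives tried. The mitotic median in LW against LL changed sign without LL replicate 3 (−0.19 to 0.16), and the median over the tested members did so with slide as a fixed block in LW against LL (0.0041 to −0.013) and WL against LL (−0.07 to 0.01), and without the filter in LW against LL (−0.018). With single mice left out it ran from −0.066 to 0.074 in LW against LL and from −0.11 to 0.01 in WL against LL. Mcm4 and Mcm5 passed in the average over maternal diets under all alternatives tried, and Mcm2 under all but the deposited normalised values. Leaving out 1 mouse at a time gave 3 to 6 members called in the average (6 without LL replicate 3: also Birc5, Ccnd1 and Mad2l1) and 0 to 1 in WW against WL (Mcm2, without WL replicate 2). Genes called then ranged from 135 to 521 in the average (fewest without WL replicate 5, most without LL replicate 1), 4 to 87 in LW against LL (fewest without LW replicate 5, most without LL replicate 1), 3 to 81 in WW against WL (without WL replicate 5 and without WL replicate 2), and 0 to 1 in WL against LL, WW against LW and the interaction. Slide as a fixed or random block called 2 members in WW against WL, Mad2l1 and Mcm5. With the replicate number as a block, 5 members were called in the average (also Ccnd1 and Mad2l1), and genes called numbered 788 in the average, 67 for LW against LL, 122 for WW against WL, 2 for WL against LL and 1 for WW against LW. The numbers share no stated litter or day.

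Genes called in LW against LL were 14 without further background correction, 0 on deposited values (on which differences are compressed), 7 without the filter, 5 with slide fixed, 15 with the mean of probes and 188 without LL replicate 1 and WL replicate 5, which called 1 member, Rfc5. In WW against WL they were 15, 133, 2 and 316 for the first 4 of these, 122 with slide random and 5 without both mice. Without further background correction 1 gene was called in WL against LL, WW against LW and the interaction, and slide fixed gave 4 in WW against LW. On deposited values the member median was 0.031 in WW against WL and 0.024 in the interaction, and without the filter it was 0.056 in WW against WL. Causes were not tested. Nearness to background limits the measurement of most members.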
